A study of Mus musculus with 27 samples.

Results

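The genes described here encode nucleolar proteins that transcribe, modify or assemble ribosomal RNA. They are 37 named genes out of 38123 in the deposited tables, found by matching Ensembl identifiers to symbols, and all 37 were measured in every library. By role they comprised 6 abundant nucleolar proteins, 3 RNA polymerase I subunits, 4 box C/D and 3 box H/ACA snoRNP proteins, 9 factors of small subunit assembly and 12 of large subunit assembly. All are protein-coding, and they lie on 16 chromosomes. The lowest value of any member in any library was 5.66 FPKM (fragments scaled to transcript length and library size), so none was near the detection limit.

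Ribosomes are built in the nucleolus, where RNA polymerase I makes a long precursor RNA. Box C/D and box H/ACA snoRNPs, each a small guide RNA with a core of proteins, methylate and pseudouridylate that precursor, and the assembly factors then fold, cut and export the subunits. Many of these genes are known targets of the Myc transcription factors, which bind the E-box sequence, and embryonic stem cells, which divide fast, express them strongly.

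The cells were the DTCM23/49 XY mouse embryonic stem cell line, in which the RNase III domain of Dicer can be deleted. Dicer cuts microRNAs from their precursors. All groups shared this conditional line, gelatin-coated plates and medium with serum and leukemia inhibitory factor. The deletion was induced with 800 nM 4-hydroxytamoxifen, the control was 0.1% ethanol, and colonies lacking Dicer were picked and grown on. The 27 libraries of polyadenylated RNA form 9 groups of 3, comprising whole cells at day 0 and at days 4, 8, 10 and 12 of the course and nuclear and cytoplasmic fractions at days 0 and 12. The labels place day 0 before induction and give no ethanol-treated group at a later day. Effects of the deletion, of the drug, of time and of colony expansion therefore cannot be told apart.

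The E-box, written CACGTG and the same on both strands, was sought in the RefSeq promoter windows of GRCm38.p6, which run from 250 bases before to 50 bases after each start site. Windows were found for 32 members, the exceptions being Npm1, Fbl, Rrp12, Bop1 and Rrs1. The motif occurred in 8 of the 32 (25%), against 13.5% of genes averaging 10 FPKM or more in whole cells and 8.09% of all genes with a window. Among 60 other ribosome biogenesis genes with a window it occurred in 14 (23.3%), a share like that of the members. The members' sites are shown because Myc is the factor most often named for these genes. Each has 30 bases, 5′ to 3′ on the gene's strand, with the E-box in capitals.
Imp4: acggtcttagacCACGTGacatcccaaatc
Nop2: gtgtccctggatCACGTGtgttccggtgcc
Grwd1: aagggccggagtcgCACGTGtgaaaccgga
Utp20: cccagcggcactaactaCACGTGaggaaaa
Pes1: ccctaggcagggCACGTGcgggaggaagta
Mybbp1a: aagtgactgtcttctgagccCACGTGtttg
Tsr1: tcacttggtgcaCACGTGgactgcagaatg
Wdr43: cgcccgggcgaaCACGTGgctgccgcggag

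The E-boxes of Imp4 (chr1:34439696-34439725, plus strand) and Nop2 (chr6:125131811-125131840, plus) began 121 and 60 bases before the start site, outside the protein-coding transcripts of GENCODE M21. The other 6 lay within 50 bases after it. Those of Utp20 (chr10:88826765-88826794, minus), Pes1 (chr11:3963965-3963994, plus), Mybbp1a (chr11:72441347-72441376, plus), Tsr1 (chr11:74898092-74898121, plus) and Wdr43 (chr17:71616220-71616249, plus) lay in an exon of the 5′ UTR. That of Grwd1 (chr7:45830740-45830769, minus) lay in a coding exon by the same annotation. A motif match describes the letters of the window and not binding of a factor.

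The ETS motif CCGGAAGT, read on both strands, occurred in 9 of the 32 members (28.1%), against 12.1% of genes averaging 10 FPKM or more and 4.31% of all genes with a window. Among 60 other ribosome biogenesis genes with a window it occurred in 20 (33.3%). Sites are shown, with the motif in capitals, for the 3 of the 9 members that passed the limma test at day 10 below. Nhp2 and Wdr74 were lower and Tsr1 higher, while Gar1, Noc2l, Grwd1, Ppan, Heatr1 and Polr1c did not pass.
Nhp2: cacttgaaaacCCGGAAGTgatgtcggagg
Wdr74: gtagtggcgcgCCGGAAGTgcaagccacgg
Tsr1: ctcgggtccgcCCGGAAGTagagttcactt

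The sites of Nhp2 (chr11:51619739-51619768, plus) and Tsr1 (chr11:74898068-74898097, plus) lay in a 5′ UTR exon by GENCODE M21, and that of Wdr74 (chr19:8735801-8735830, plus) across or before its first exon. Tsr1 and Grwd1 were the 2 members with both motifs. The GC box GGGCGG, on both strands, was in 71.9% of the members' windows and in 72.4% of those of genes averaging 10 FPKM or more. In 15 members the gene body overlaps a gene on the opposite strand, among them Gnl3, Rrp9, Nhp2, Bop1, Wdr12 and Tsr1. The libraries kept strand, but the strand setting of the counting is not given in the sources used here, so reads of such partners may be mixed.

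Dicer1 checked the labels. It stood at 15.01, 16.02 and 17.9 FPKM in the whole cell libraries of day 0 and at 8.63%, 10.5% and 11.2% of that mean at days 4, 8 and 10. In the whole cell libraries labelled day 12 it was at 89.6%, which goes against their label, so they are called the libraries labelled day 12 throughout. In the day 12 fractions Dicer1 was at 31.6% of day 0 in the nucleus and 13.6% in the cytoplasm. All 10 embryonic stem cell markers (Pou5f1, Nanog and others) reached 1 FPKM in every group. FPKM steps between low genes put the relative depth at 3.01 to 3.56 for whole cell day 0 and at 0.712 to 1.78 for all other libraries. Replicate 3 of whole cell day 4, replicate 3 of nucleus day 0 and replicate 1 of nucleus day 12 stood apart from their groups. Their Pearson r with the other replicates was 0.926 to 0.946, 0.908 to 0.924 and 0.929 to 0.939. Those other replicates correlated with each other at 0.980, 0.985 and 0.990. Whether replicates came from separate cultures is not stated, and the spread behind each p-value may be technical.

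At day 0 the members' mean levels in whole cells had a median of 63.6 FPKM, and 13 members exceeded 100 FPKM. Npm1, nucleophosmin, the most abundant nucleolar protein, led with 2138 ± 81.2 FPKM (SD, n = 3). Ncl, nucleolin, followed at 316 ± 11.2 FPKM, and Fbl, fibrillarin, the methyltransferase of box C/D snoRNPs, at 301 ± 20.4 FPKM. Npm1 stood far above the next gene, while the ranges of Ncl and Fbl overlapped. At the low end stood Polr1a, the largest subunit of RNA polymerase I, at 15.7 ± 1.38 FPKM, below Utp20 (19.5 ± 1.34) and Noc3l (19.5 ± 1.01), which could not be told apart from each other. Npm1 may be undercounted or overcounted, since it has processed pseudogenes and the treatment of reads with several matches is not given.

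The first question was what happened to these mRNAs in whole cells after the deletion. Across the 5 whole cell groups 17 of 37 members (45.9%) passed limma's F-test, beside 54.2% of all genes tested. At day 4, with Dicer1 already low, 0 of 37 members passed the limma test (adjusted p below 0.05 over 15991 genes), and 4 had an unadjusted p below 0.05. Among all genes tested, 6.7% passed. The members' median log2 change was -0.04. Without replicate 3 of day 4, a library that stood apart, 4 members passed, 2 in each direction (5.41% each), beside 7.83% higher and 2.91% lower of all genes in that fit.

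At day 8, 11 members were lower and 1 was higher than at day 0, against 9.62% and 20.2% of all genes tested. The share of members that were lower was 29.7%. The falls were led by Nop10, Fbl, Nop16 and Nhp2, with log2 changes of -1.07, -0.71, -0.65 and -0.44, and the rise was that of Tsr1, at 0.52. The call of Nhp2 ended without replicate 1 or 2 of day 0 or of day 8, with adjusted p up to 0.0883 by limma. The count of 12 became 6 without day 8 replicate 3 and 7 without day 0 replicate 2. Leaving out the day 4 library that stood apart gave 22 lower and 2 higher, beside 15.9% and 28% of all genes.

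At day 10, 14 members (37.8%) were lower and 1 (2.70%) was higher than at day 0. Of all genes tested, 16% were lower and 27.7% higher, and of genes averaging 10 FPKM or more, 20.9% and 25.8%. The median change was -0.22 over the members and 0.09 over all genes. All 3 libraries of day 10 lay below day 0 for 62.2% of members and 25.3% of all genes tested, and above for 10.8% and 38.6%. At day 8 these shares were 54.1% and 20.3% below, and 5.41% and 33.8% above. The summed level of the 37 members went from 5394 ± 88.4 to 4163 ± 57.9 FPKM (SD, n = 3), of which Npm1 made up the largest part. With median-of-ratios scaling 20 members were lower, and with quantile normalization, which moved the median of all genes from 0.09 to -0.08, 15 were. Shares of all genes under these scalings are not given here. Without the day 4 library that stood apart, 20 members were lower and 3 higher, beside 21.9% and 34.5% of all genes. Days 8 and 10 were compared with the same day 0 libraries, so their calls are not independent.

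**Figure D1:**
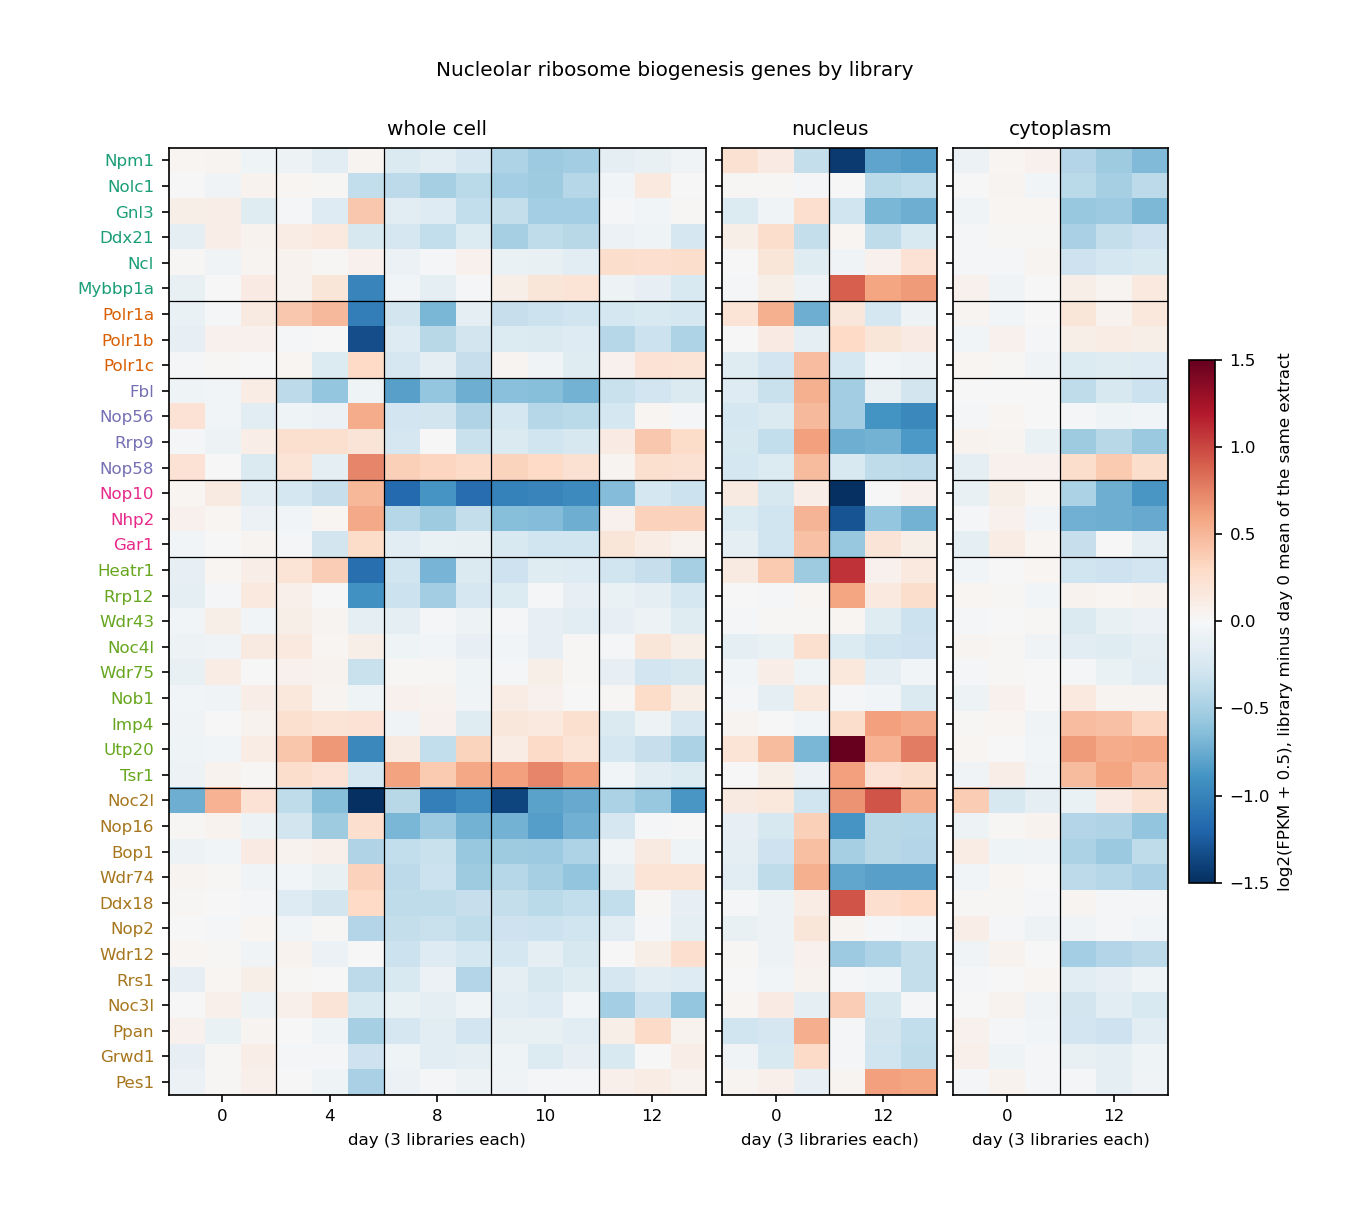
Members in rows, coloured and divided by role (from the top, abundant nucleolar proteins, RNA polymerase I subunits, box C/D, box H/ACA, small subunit and large subunit factors), and libraries in columns. Colour is log2(FPKM + 0.5) minus the day 0 mean of the same extract, with values beyond 1.5 in either direction shown at the end of the scale. Nop10, Nhp2, Fbl and Nop16 are blue in all libraries of days 8 and 10, Tsr1 is red there, and replicate 3 of day 4 differs from its neighbours.

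Of the 3 members that are box H/ACA proteins, part of the core of the pseudouridylation particles, 2 fell at day 10 (16% of all genes did). Nop10, the smallest of them, stood at 234, 252 and 206 FPKM at day 0, at 192, 181 and 324 at day 4, at 102, 124 and 104 at day 8 and at 114, 115 and 118 at day 10. All 6 libraries of days 8 and 10 were below all 3 of day 0, and day 10 was at 50.2% of day 0 (log2 change -0.99 ± 0.18, SE, adjusted p = 0.000752). Nhp2, the member of this group with the highest level at day 0, had 256, 249.6 and 230.4 FPKM at day 0, 238, 251 and 364 at day 4, 182, 169 and 191 at day 8 and 157, 156 and 147 at day 10. The day 10 libraries lay below those of day 8, and these below day 0 (day 10 change -0.68 ± 0.14, SE, adjusted p = 0.00133). Gar1, the third member of this group, had a change of -0.27 ± 0.11 (SE, adjusted p = 0.0519). Without the day 4 library that stood apart it was called lower. Dkc1, another core protein, is not a member and was read with the other ribosome biogenesis genes. It passed limma's F-test over the whole cell groups (adjusted p = 0.00108), which gives no direction.

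Of the 4 box C/D proteins, 2 fell at day 10 (16% of all genes did). Fbl went from 286, 291.6 and 324 FPKM at day 0 to 228, 201 and 287 at day 4, 171, 201 and 181 at day 8 and 195, 192 and 184 at day 10. Its groups at days 8 and 10 did not overlap day 0, and the change at day 10 was -0.66 ± 0.11 (SE, adjusted p = 0.000390). Rrp9, which binds the U3 particle, had -0.25 ± 0.09 (adjusted p = 0.0406). Its call ended when any library of either group other than day 0 replicate 2 was left out, with adjusted p up to 0.142. The scaffold proteins Nop56 and Nop58 did not pass, at -0.37 ± 0.16 and 0.29 ± 0.17 (SE). Without the day 4 library that stood apart both were called, Nop56 lower and Nop58 higher.

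Of the 6 abundant nucleolar proteins, 4 fell at day 10 (16% of all genes did). Npm1 had 2177, 2192 and 2045 FPKM at day 0, 2034, 1909 and 2206 at day 4, 1840, 1893 and 1791 at day 8 and 1547, 1467 and 1488 at day 10. By then it was at 70.2% of day 0 (-0.51 ± 0.07, SE, adjusted p = 9.88e-05), and no library of day 10 reached the lowest of day 0. Its size rested on the scaling, since with quantile normalization the change was -0.14 (adjusted p = 0.273). Nolc1, a chaperone of snoRNPs, Gnl3, nucleostemin, and the RNA helicase Ddx21 had changes of -0.49, -0.46 and -0.43. Ncl and Mybbp1a, a Myb-binding nucleolar protein, did not pass, at -0.12 ± 0.06 and 0.16 ± 0.22 (SE). Without the day 4 library that stood apart Ncl was called lower.

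Of the 12 factors of large subunit assembly, 6 fell at day 10 (16% of all genes did). Nop16 led them, going from 43.7, 44.7 and 40.9 FPKM at day 0 to 26.2, 24.1 and 26.0 at day 10 (-0.75 ± 0.15, SE, adjusted p = 0.00145). The groups did not overlap, and day 10 stood at 59.0% of day 0. Bop1 and Wdr12, which with Pes1 form the PeBoW complex, had changes of -0.51 and -0.22, Wdr74 of -0.50, the helicase Ddx18 of -0.38, and the 28S rRNA methyltransferase Nop2 of -0.31. The calls of Ddx18, Nop2 and Wdr12 ended when single libraries were left out. For Ddx18 this held for each of the 6, with adjusted p up to 0.0774. For Nop2 it held for each but day 0 replicate 2, with adjusted p up to 0.0649, and for Wdr12 for replicates 1 and 2 of day 0 and 1 and 3 of day 10, up to 0.106. Pes1, the PeBoW member with the highest level, had 114, 123 and 128 FPKM at day 0 and 117, 119 and 118.9 at day 10, and its change was -0.04 ± 0.10 (SE, adjusted p = 0.809). Rrs1, Noc3l, Grwd1 and Ppan did not pass either.

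Noc2l, a large subunit factor, had the largest fitted change of these 12, -0.97 ± 0.56 (SE), which did not pass (adjusted p = 0.179). It stood at 31.4, 75.7 and 60.97 FPKM at day 0, at 40.2, 33.6 and 5.66 at day 4, at 39.1, 25.5 and 27.3 at day 8 and at 19.97, 30.03 and 31.0 at day 10. Its day 0 libraries were spread widely, with replicate 1 close to the level of days 8 and 10, and day 4 replicate 3 was the lowest of all. In a fit without that library the same change passed (adjusted p = 0.00990 by limma).

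Of the 9 factors of small subunit assembly 1 rose, and the other 8 did not pass at day 10 (27.7% of all genes rose and 16% fell). The median log2 change over the 9 was 0.03. Tsr1, a GTPase-like factor of late cytoplasmic maturation, had 29.0, 31.7 and 31.0 FPKM at day 0, 36.8, 35.5 and 25.5 at day 4, 46.7, 40.2 and 45.9 at day 8 and 46.9, 51.3 and 47.0 at day 10. All 6 libraries of days 8 and 10 were above day 0 (day 10 change 0.65 ± 0.12, SE, adjusted p = 0.000691). Wdr43, the member with the highest level in this group, had 80.2, 87.5 and 80.1 FPKM at day 0 and 81.5, 75.8 and 73.5 at day 10, which overlapped, with a change of -0.10 ± 0.08 (SE, adjusted p = 0.308). The remaining changes ran from -0.23 for Heatr1 to 0.20 for Utp20, with Rrp12, Noc4l, Wdr75, Nob1 and Imp4 between them. Without the day 4 library that stood apart Imp4 was called higher.

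The 3 RNA polymerase I subunits did not pass at any day in the fit of all 15 whole cell libraries. Without day 4 replicate 3, all 3 were called lower than day 0 at day 8, and Polr1a and Polr1b at day 10. Polr1c, shared with RNA polymerase III, had 61.9, 63.2 and 62.8 FPKM at day 0 and 64.6, 60.4 and 55.1 at day 10 (-0.06 ± 0.11, SE, adjusted p = 0.686). Polr1a had 14.6, 15.4 and 17.3 FPKM at day 0, 21.0, 22.2 and 7.37 at day 4, 12.8, 9.60 and 14.3 at day 8 and 12.3, 12.4 and 12.7 at day 10, a change of -0.32 ± 0.30 (SE, adjusted p = 0.416). Its day 10 values lay below all of day 0, and the spread of the fit was wide.

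**Figure D2:**
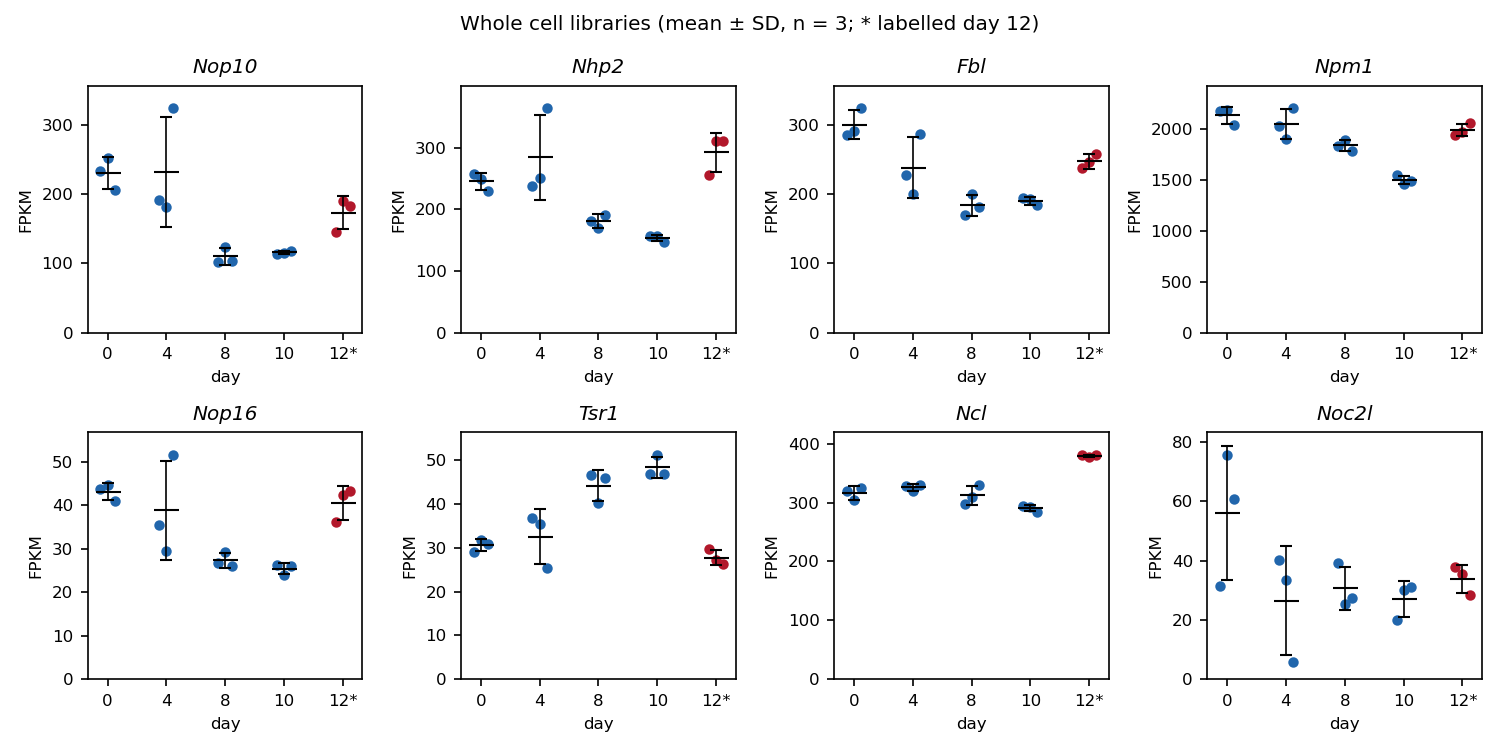
FPKM of 8 members in each whole cell library by day (points, with the mean and SD of 3 libraries as black bars; red, the libraries labelled day 12). Nop10, Nhp2, Fbl, Npm1 and Nop16 sit below their day 0 points at day 10, Tsr1 above, and the third point of day 4 lies far from its group for Nop10, Nhp2 and Nop16.

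From day 4 to day 8, 10 members were lower and 1 higher, beside 6.72% and 13.2% of all genes. The lower ones included Nop10 (-1.03), Nhp2 (-0.63) and Wdr74 (-0.48), and the higher one was Tsr1 (0.45). The count of 11 ran from 3 without day 8 replicate 3 to 16 without day 4 replicate 3. It was 4 without day 8 replicate 1 and 7 without day 4 replicate 1 or day 8 replicate 2, and in a fit of these 2 days alone it was 0. From day 8 to day 10 Npm1 alone passed, at -0.30 ± 0.07 (SE, adjusted p = 0.0269), while 3.24% of all genes were lower and 5.2% higher. Without the day 4 library that stood apart, 2 were higher and 1 lower, beside 11.4% and 8.19%. That call ended without any 1 of the 6 libraries, with adjusted p up to 0.102.

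Markers of other cell types were read over the same days. At day 10, 27.7% of all genes were higher and 16% lower. The endoderm list (33.3% higher) and the embryonic stem cell list (20% higher, 10% lower) were near or below these shares. The summed level of 8 fibroblast and smooth muscle markers was 128 to 155 FPKM at day 0 and 836 to 857 at day 10, and 5 of its 7 tested genes were higher and 1 lower. The sum of 7 trophoblast markers went from 124 to 175 FPKM to 499 to 538, with 5 of 6 higher. For 8 endoderm markers it went from 8.94 to 10.1 FPKM to 26.2 to 28.9, with 2 of 6 higher, and for 5 neuroectoderm markers from 27.8 to 29.7 FPKM to 43.4 to 44.0, with 3 of 4 higher. None of these genes was at 0 in all 3 libraries of either day. The 10 embryonic stem cell markers summed to 2039 to 2706 FPKM at day 0 and 2129 to 2304 at day 10, with 2 higher and 1 lower. Their part in the members' falls was not tested, and in bulk RNA fewer cells of a type and less RNA per cell cannot be told apart.

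In the libraries labelled day 12, 1 member was higher and 1 lower, beside 10.2% and 3.34% of all genes, and the median change was -0.10. Ncl had 381, 377.7 and 380.6 FPKM, above all day 0 libraries (0.26 ± 0.06, SE, adjusted p = 0.0117). The same held for 10.8% of members and 27.8% of all genes tested. Noc3l had 13.5, 15.5 and 12.9 FPKM against 19.6, 20.5 and 18.5 at day 0, a change of -0.47 ± 0.10 (SE, adjusted p = 0.0101). Both calls ended without day 0 replicate 2 (adjusted p = 0.066 and 0.0527), and that of Ncl also with median-of-ratios scaling (0.121) or quantile normalization (0.298). Without the day 4 library that stood apart, 3 members were higher and 6 lower, beside 18.7% and 10.5% of all genes.

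Set against day 10, 14 members were higher and 3 lower in the libraries labelled day 12, beside 20.6% and 25.2% of all genes, so 37.8% of the members were higher. All 3 box H/ACA members were higher, namely Nhp2 (0.93), Nop10 (0.57) and Gar1 (0.39), as were 5 of the 6 abundant nucleolar proteins. The call of Nop10 ended without replicate 1 or 2 of day 10 or replicate 2 or 3 of those labelled day 12, with adjusted p up to 0.0808. With quantile normalization those of Ncl, Npm1 and Ddx21 ended (adjusted p = 0.171, 0.796 and 0.458), and that of Ddx21 also ended without any day 10 library or replicate 1 or 2 of those labelled day 12. Nhp2 reached 256, 311 and 311 FPKM, and Nop16 36.1, 42.2 and 43.4 FPKM, each above every library of day 10. The same held for 54.1% of members and 29.3% of all genes tested. Tsr1, at 29.7, 27.3 and 26.4 FPKM, was lower (-0.79 ± 0.12, SE, adjusted p = 0.000173), as were Imp4 (-0.36) and Noc3l (-0.33). This comparison shares the libraries labelled day 12 with the one against day 0, and the day 10 libraries with that of day 10 against day 0. Without the day 4 library that stood apart, 19 members were higher and 7 lower, beside 26.6% and 32.2% of all genes.

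**Figure D3:**
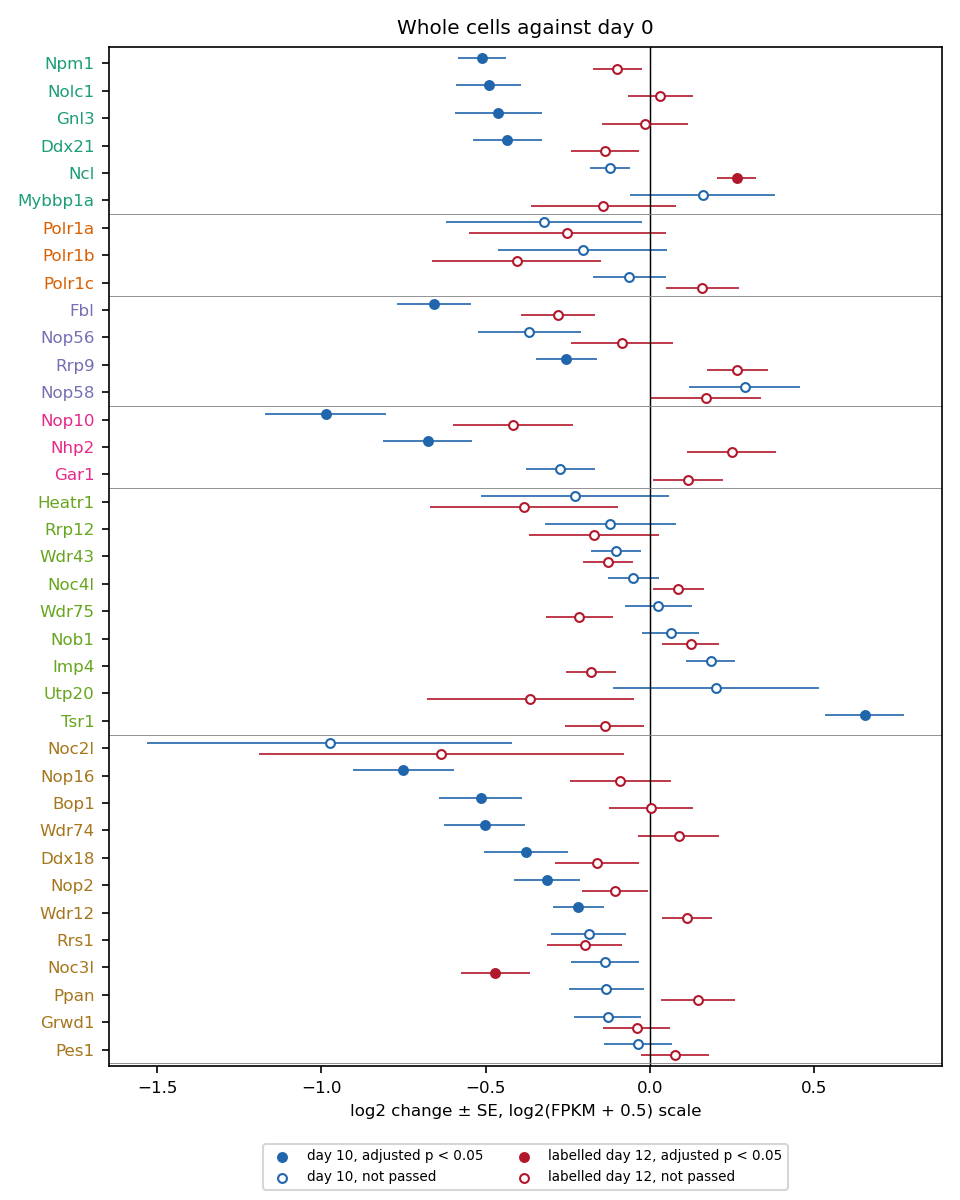
Fitted log2 change against day 0 (point) with its SE (line) for each member, at day 10 in blue and in the libraries labelled day 12 in red, with filled points for adjusted p below 0.05 by limma. Names are coloured by role as in the heat map. Filled blue points lie left of 0 for 14 members and right of 0 for Tsr1, and 2 red points are filled, those of Ncl and Noc3l.

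Other genes of the pathway were read from a list of 70 further ribosome biogenesis factors, of which 69 were in the tables. At day 10, 25 of the 69 (36.2%) were lower and 4 (5.80%) higher than at day 0, with a median log2 change of -0.22, beside 16% and 27.7% of all genes. The largest falls among those that passed were those of Lyar, a nucleolar protein abundant in stem cells (-0.95), Nip7 (-0.87), Utp14a (-0.80) and Rrp36 (-0.76). Lyar stood at 98.9, 92.6 and 96.9 FPKM at day 0 and at 49.98, 49.4 and 49.2 at day 10, without overlap. The rises were those of Ddx52 (0.48), Sbds (0.41), the factor mutated in Shwachman-Diamond syndrome, Bysl (0.27) and Rrp1 (0.21). In the cytoplasm at day 12, 23 of the 69 (33.3%) were lower and 2 (2.90%) higher, beside 16.6% and 16% of all genes.

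Of 12 further genes of RNA polymerase I transcription, 11 were tested, and 2 (18.2%) were lower and 1 (9.09%) higher at day 10, beside 16% and 27.7% of all genes. Polr1e and Polr1d, both subunits, had log2 changes of -0.62 ± 0.10 and -0.87 ± 0.18 (SE, adjusted p = 0.000175 and 0.00165). Rrn3, the initiation factor TIF-IA, rose from 84.7 ± 1.42 to 104.0 ± 3.26 FPKM (SD, n = 3), a change of 0.29 ± 0.09 (SE, adjusted p = 0.0147).

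Myc and Mycn are among the genes that encode factors binding the E-box. Myc was at 15.96, 23.0 and 21.7 FPKM at day 0 and 23.8, 21.2 and 21.1 at day 10, and its log2 change was 0.14 ± 0.17 (SE, adjusted p = 0.560). In the libraries labelled day 12 it was at 10.1, 14.96 and 9.98 FPKM, a fall of -0.77 ± 0.17 (SE, adjusted p = 0.0105). Mycn went from 104.0, 115 and 119 FPKM at day 0 to 80.0, 81.7 and 87.0 at day 10, a change of -0.44 ± 0.10 (SE, adjusted p = 0.00278). Of the 11 genes of the Myc network, 4 (36.4%) were higher and 2 (18.2%) lower at day 10, near the 27.7% and 16% of all genes, and Mxd4, which competes with Myc for Max, had the largest rise (1.76) from a low level of 0.571 ± 0.163 FPKM.

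Among the 8 members with an E-box in the window, 1 was higher (Tsr1) and 1 lower (Nop2) at day 10, with a median log2 change of 0.06. Among the 24 with a window and no E-box, 10 were lower and the median was -0.26. Of all genes tested, 16% were lower and 27.7% higher at day 10. In the nucleus at day 12, 5 of the 8 were higher, and of the 24, 2 were higher and 7 lower, beside 15.1% higher and 21.6% lower of all genes. Of the 16 nuclear calls 1 was kept in every alternative tried, that of Mybbp1a. The E-box members also had longer transcripts, with a median of 3420 bases for the longest annotated transcript against 2167, and the part of length in these differences was not tested. With and without the ETS motif, the medians at day 10 were -0.23 (9 members) and -0.20 (23 members).

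The fractions were used to ask where the mRNAs stood. Across the 4 fraction groups 32 of 37 members (86.5%) passed limma's F-test, beside 69.9% of all genes. FPKM is relative within a fraction, so a level in the nucleus gives the gene's share of nuclear RNA and not an amount. At day 0, 23 of 37 members (62.2%) were lower in the nucleus than in the cytoplasm and 1 was higher, beside 16.4% and 25.3% of all genes, or 30.2% and 18.2% of those averaging 10 FPKM or more. The median difference was -0.68 over the members and 0.12 over all genes, which quantile normalization moved to -0.62 and -0.10. Without both nuclear libraries that stood apart, 30 members were lower and 3 higher, beside 26.9% and 37.1% of all genes. The 3 largest differences were those of Heatr1, a scaffold of the small subunit processome, Ddx21 and Fbl, at -1.29 ± 0.27, -1.27 ± 0.16 and -1.19 ± 0.20 (SE, adjusted p = 0.00335, 0.000141 and 0.000872). Heatr1 had 16.8, 20.2 and 10.3 FPKM in the nucleus and 37.0, 38.2 and 39.0 in the cytoplasm. Ddx21 had 48.3, 54.4 and 35.3 in the nucleus against 107.0, 110.5 and 111 in the cytoplasm. Neither pair of groups overlapped. All nuclear libraries lay below the cytoplasmic ones for 70.3% of members and 22.4% of all genes tested.

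Nop56 was the one member called higher in the nucleus at day 0. It had 144, 149 and 244 FPKM there and 78.8, 82.0 and 79.6 in the cytoplasm, a difference of 1.11 ± 0.19 (SE, adjusted p = 0.00102). Polr1a, Nop10, Ppan and Nob1 had fitted differences of 0.34, 0.42, 0.28 and 0.10, which did not pass, and without both nuclear libraries that stood apart Polr1a and Nop10 were also called higher. Nop56 is a host gene of snoRNAs, with 5 annotated snoRNA genes inside its body, and 7 members in all hold 22 such genes. The 7 hosts had a median nuclear minus cytoplasmic difference of -0.20 and the 30 other members -0.71 at day 0, and -0.44 and -0.61 at day 12. At day 0 the hosts ran from -1.18 to 1.11, with 1 higher and 2 lower, while 21 of the 30 others were lower. At day 12, 4 hosts and 19 others were lower and 0 were higher. Of all genes, 25.3% were higher and 16.4% lower at day 0, and 18.4% and 15.7% at day 12. The part of hosting in the nuclear levels was not tested.

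At day 12, 23 members were again lower in the nucleus, beside 15.7% of all genes and 30.5% of those averaging 10 FPKM or more, with a median difference of -0.60. The share of all genes that were higher was 18.4%, and 13.8% of those averaging 10 FPKM or more, while no member was. Without both libraries, 31 were lower and 3 higher, beside 26.8% and 33.2%. Between the lists of the 2 days, which share no library, 19 members were in common, 82.6% of each. The overlap of calls over all genes is not given here. The differences of the 2 days correlated at Pearson r = 0.787 over the members and 0.766 over 17124 genes. Fbl (-1.18), Rrs1 (-1.15), a factor of 5S RNP assembly, and Ddx21 (-1.08) led. Fbl had 57.6, 76.9 and 68.7 FPKM in the nucleus and 146, 161 and 152 in the cytoplasm, and Rrs1 had 14.6, 14.4 and 11.5 against 29.6, 30.4 and 31.5. The change of the nuclear to cytoplasmic ratio from day 0 to day 12 passed for 0 of 37 members by limma, where 1.33% of all genes passed. At an unadjusted p below 0.05 were 5, with the lowest adjusted p at 0.0759, that of Mybbp1a. Without nucleus day 12 replicate 1 the count was 3, without nucleus day 0 replicate 3 it was 1, and without both 14, of which 9 were higher and 5 lower, beside 17.1% and 21.6% of all genes.

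**Figure D4:**
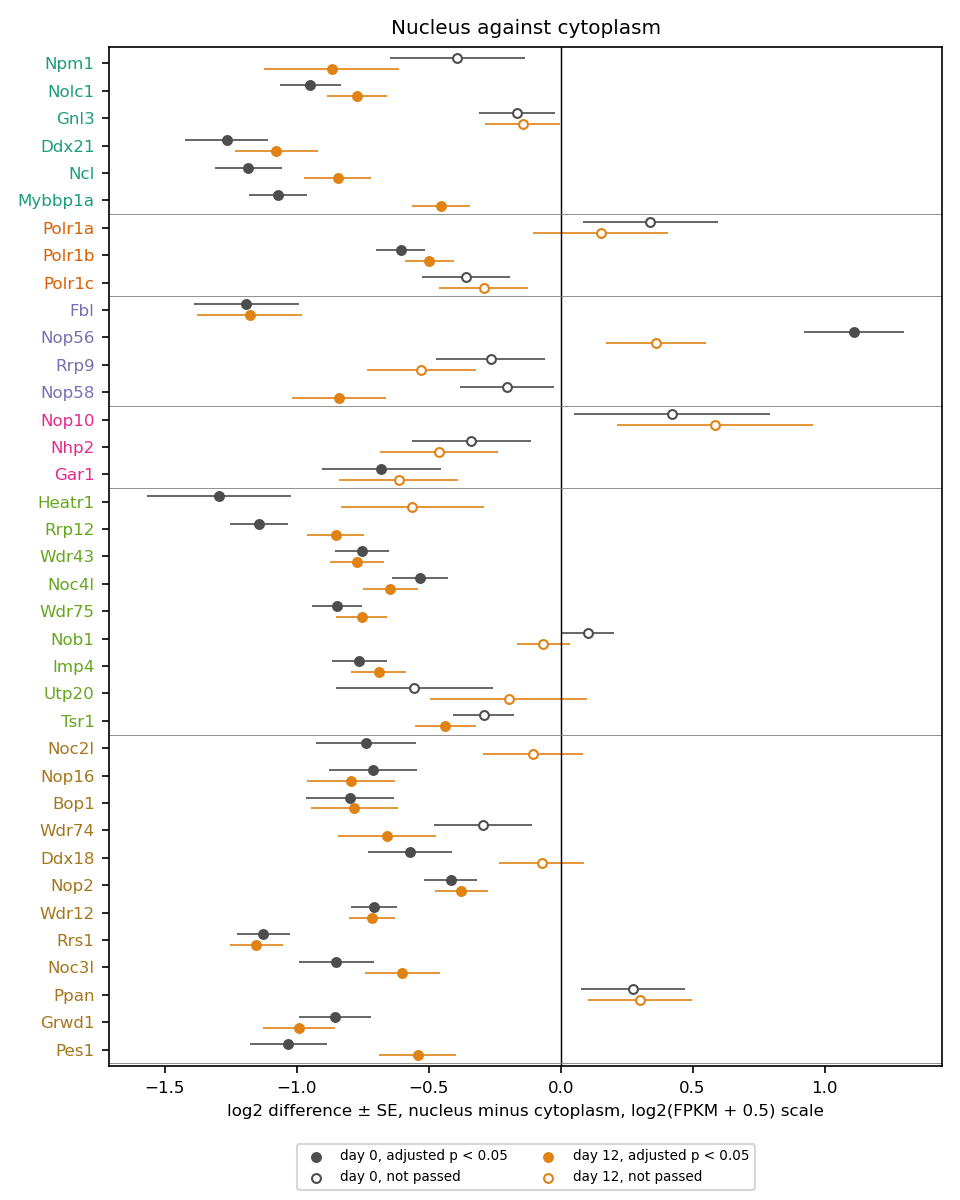
Nucleus minus cytoplasm on the log2(FPKM + 0.5) scale for each member (point) with its SE (line), at day 0 in grey and day 12 in orange, with filled points for adjusted p below 0.05 by limma. Most points lie left of 0, Nop56 at day 0 lies at 1.11, and Polr1a, Nop10 and Ppan lie right of 0 with open points at both days.

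Within the nucleus, 8 members were higher and 8 lower at day 12 than at day 0, both 21.6%, beside 15.1% and 21.6% of all genes. The largest rises were those of Utp20, a large processome factor, from 15.6, 18.9 and 8.19 to 40.8, 19.4 and 23.2 FPKM (0.95 ± 0.30, SE, adjusted p = 0.0294), Noc2l, from 23.1, 23.4 and 16.9 to 33.6, 40.6 and 30.8 (0.72 ± 0.19, adjusted p = 0.0137), and Mybbp1a. Mybbp1a went from 65.9, 70.5 and 63.2 to 124, 101 and 103.5 FPKM (0.71 ± 0.11, SE, adjusted p = 0.000754). In all 3 the groups did not overlap. All 3 libraries of day 12 lay above day 0 for 18.9% of members and 17.2% of all genes tested. The call of Utp20 ended without nucleus day 0 replicate 3 (adjusted p = 0.0732) or nucleus day 12 replicate 1 (0.0863), and that of Noc2l without nucleus day 12 replicate 2 (0.0502).

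The largest nuclear falls were those of Npm1, from 2012, 1866 and 1334 to 632, 987 and 963 FPKM (-1.02 ± 0.26, SE, adjusted p = 0.0109), Nhp2, from 116, 108 and 191 to 54.2, 89.3 and 81.5 (-0.86 ± 0.22, adjusted p = 0.0130), and Wdr74, from 58.0, 49.9 and 94.3 to 37.6, 36.7 and 36.7 (-0.80 ± 0.19, adjusted p = 0.00731). None of these groups overlapped. All 3 libraries of day 12 lay below day 0 for 27% of members and 24.8% of all genes tested. The call of Npm1 ended with no filter (adjusted p = 0.062) and with quantile normalization (0.0881), and all 3 ended in a fit of the nuclear groups alone (0.148 for Npm1, 0.107 for Nhp2 and 0.0825 for Wdr74). Without both nuclear libraries that stood apart, 10 members were higher and 15 lower, beside 24.7% and 31.8% of all genes, and in a fit of the 2 nuclear groups alone 1 passed.

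Within the cytoplasm, 5 members (13.5%) were lower and 2 (5.41%) higher at day 12, beside 16.6% and 16% of all genes, so neither share was above the background. The rises were Tsr1, from 28.1, 31.5 and 28.3 to 40.7, 44.3 and 40.6 FPKM (0.51 ± 0.12, SE, adjusted p = 0.00650), and Imp4, a U3 snoRNP protein, from 31.0, 31.1 and 29.4 to 42.2, 41.5 and 38.2 (0.41 ± 0.10, adjusted p = 0.0120). The falls were Nhp2 (-0.74), Gnl3 (-0.59), Nop16 (-0.49), Wdr12 (-0.45) and Nolc1 (-0.43). Nhp2 went from 166, 178 and 165 to 102, 101 and 99.9 FPKM, Gnl3 from 76.3, 80.5 and 80.7 to 53.3, 53.9 and 49.6, and Nop16 from 28.7, 30.8 and 31.6 to 22.3, 22.0 and 19.95. In each the groups did not overlap. All 3 libraries of day 12 lay below day 0 for 62.2% of members and 34% of all genes tested, and above for 18.9% and 30.9%.

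The spread in this fit was shared with the nuclear libraries. Without both that stood apart, and in a fit of the cytoplasm alone, 19 members were lower and 4 higher, beside 31.2% and 28.2% of all genes in the first. The shares of all genes in the second are not given here. Leaving out single cytoplasmic libraries gave 4 or 5 calls, with 4 without day 0 replicate 2 or 3 or day 12 replicate 1 or 2. The calls of Nhp2 and Nop16 ended without any 1 of the 6, with adjusted p up to 0.0830 and 0.131, that of Imp4 without day 0 replicate 3 or day 12 replicate 1 (0.0504 and 0.0507), and that of Nolc1 without day 0 replicate 2 or day 12 replicate 2 (up to 0.105 over all alternatives).

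The whole cell and fraction comparisons share no library. All 5 members that were lower in the cytoplasm at day 12 were among the 14 lower in whole cells at day 10, 35.7% of the latter, and Tsr1 was higher in both. Of the 8 that were lower in the nucleus, 7 (87.5%) were among the 14, or 50% of these. The overlap of calls over all genes is not given here, so these overlaps cannot be set against a background. Across the 37 members the day 10 change correlated with that in the cytoplasm at Pearson r = 0.709 and with that in the nucleus at 0.441, while over 15506 genes the values were 0.613 and 0.513. These are descriptions across genes, which are not independent replicates.

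Transcript length moved with some of these values. In whole cell day 4 replicate 3 the members' deviation from the other 2 replicates had r = -0.480 with the log2 length of the longest annotated transcript, in nucleus day 0 replicate 3 it had -0.655 and in nucleus day 12 replicate 1 0.471 (37 members each). Over 12823 protein-coding genes these were -0.533, -0.525 and 0.457. Other libraries had trends as large, such as 0.722 in nucleus day 0 replicate 2 and -0.593 in nucleus day 12 replicate 2. In whole cell day 8, r was 0.215, -0.562 and 0.562 for replicates 1, 2 and 3. Slopes per doubling of length were -0.12 and 0.0932 for the last 2, against -0.377 in day 4 replicate 3. In day 4 replicate 3, Utp20, Heatr1 and Polr1a were low and Nop10 was high. Nop58 (0.69), Wdr12 (0.03) and Ncl (0.03), whose longest annotated transcripts are long, were not low there. The longest annotated transcript need not be the one expressed, which was not checked. The lowest member was Noc2l (-2.60), with 2813 bases. The members' change at day 4 against day 0 had r = 0.0152 with length, and 0.576 without day 4 replicate 3. From day 4 to day 8 r was 0.377, and -0.0511 without that library. The change at day 10 had r = 0.460 with length over the members and 0.156 over protein-coding genes, the short Nop10, Nhp2 and Fbl among the falls. Wdr12, with the longest annotated transcript of the members at 10012 bases, also fell. In the cytoplasm, where no library stood apart, r was 0.505 and 0.146, and for the libraries labelled day 12 against day 10 it was -0.549 and -0.273. In the nucleus r was 0.517, and 0.139 without both libraries that stood apart. The part of length in the falls was not tested.

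**Figure D5:**
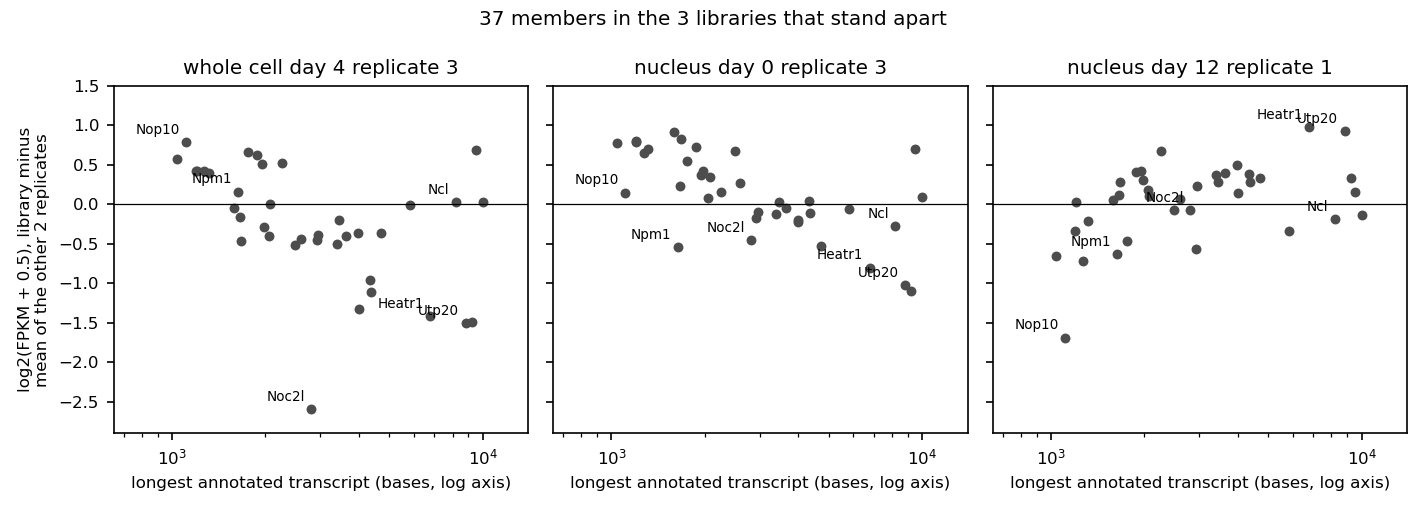
Deviation of each of the 37 members in 3 libraries from the mean of the other 2 replicates, on the log2(FPKM + 0.5) scale, against the length of its longest annotated transcript on a log axis. Points fall with length in the left and middle panels (r = -0.480 and -0.655) and rise in the right panel (r = 0.471).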

How the data were processed

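Each library came as a deposited list of genes with 1 FPKM value, per the file headers. TopHat2 2.0.9 and Cufflinks 1.3.0 with mm9 are listed in the submitters' processing notes, without their roles. The sources used here state neither the annotation nor how strand and multiply matching reads were handled. Read totals were not used, so precision rests on the 3 replicates. The 3 whole cell tables labelled day 12 had another gene order and were joined by identifier.

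Tests used log2(FPKM + 0.5) with limma 3.58.1 (R 4.3.3, eBayes with a trend, Benjamini-Hochberg over all genes, threshold 0.05), keeping genes that averaged 0.5 FPKM or more in 1 group. This left 15991 genes in the fit of 15 whole cell libraries and 17124 in that of 12 fraction libraries, all 37 members included. Changes of genes near the pseudocount are understated. The groups of each extract shared 1 estimate of the spread.

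The members, lists and tests were chosen with earlier results of these data known. Values in every library are given for the member of each role with the highest day 0 level and the one with the largest day 10 change, and for up to 3 rises and falls in each fraction comparison. Of the other ribosome biogenesis genes, up to 4 in each direction are named, and Dicer1, Myc and Mycn always. Values per library of Ncl, Noc3l, Nop16 and Lyar in whole cells, and the naming of Mxd4, Polr1d, Polr1e and Rrn3, were chosen after they were seen. Promoter windows came from RefSeq (GRCm38.p6), and gene models from GENCODE M21 on GRCm38. On simulated data, 100 genes were changed by 1 log2 unit and 100 by 0.5. In the day 10 comparison limma recovered 76% and 28% of them (13762 genes, 5 false of 109 calls). In the cytoplasm it recovered 63% and 13% (14298 genes, 4 false of 80 calls). The simulated noise was independent between genes, and the measured day 10 comparison called 6987 of 15991 genes. These rates may therefore not hold for the measured data.

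As alternatives, the pseudocount was set to 0.1 or 1, the filter to 1 FPKM or to none, and the scaling to median-of-ratios or quantile. Fits were also made with a replicate block, over the compared groups or protein-coding genes alone, without the libraries labelled day 12, and without each library in turn. Leaving out the third day 4 library, or both nuclear libraries that stood apart, was added after the data were seen. Python 3.11.15, numpy 2.4.6, pandas 2.3.3, scipy 1.17.1 and matplotlib 3.10.9 were used.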

Additional observations from a re-analysis of the deposited data

How the results depend on the processing

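Counts of members past the threshold that moved by more than 1.5 times are given here. The cause was not tested unless stated. Shares of all genes are given above for the fits added after the data were seen. For most other settings they are not given here, so those counts cannot be set against a background. In a fit of the compared groups alone, which estimates the spread from fewer libraries, they were 20 for day 8 and 24 for day 10 against day 0, 7 for the libraries labelled day 12, 0 for day 8 against day 4, 4 for day 10 against day 8, 1 in the nucleus and 23 in the cytoplasm. With quantile normalization they were 1 at day 4, 5 for the libraries labelled day 12 against day 0 and 0 for day 10 against day 8. For day 10 against day 8 the count was also 0 with no filter, with median-of-ratios scaling and without the libraries labelled day 12, and that last setting gave 7 for day 8 against day 4. Without the third day 4 library (added after the data were seen), they were 24, 23 and 9 for day 8, day 10 and the libraries labelled day 12 against day 0, 3 for day 10 against day 8 and 26 for the libraries labelled day 12 against day 10. Without both nuclear libraries that stood apart they were 25 in the nucleus, 23 in the cytoplasm and 14 for the ratio.

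With single libraries left out the counts ran from 0 to 4 at day 4, 6 to 10 at day 8, 11 to 13 at day 10 and 0 to 2 for the libraries labelled day 12, all against day 0. They ran from 3 to 16 for day 8 against day 4, 0 to 1 for day 10 against day 8, 14 to 15 for the libraries labelled day 12 against day 10, 13 to 15 in the nucleus, 4 to 5 in the cytoplasm, 23 to 30 and 19 to 26 between the fractions at days 0 and 12, and 0 to 3 for the ratio.

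Replicate numbers were shared by the groups but did not pair the libraries, since same-numbered libraries had correlations of their deviations from -0.316 to 0.249 in whole cells and -0.431 to 0.346 in the fractions, and 2 of 15 and 4 of 12 libraries correlated best with their own number. With the replicate block the counts were 7 for day 8 against day 4 and 0 for day 10 against day 8, and the others stayed within 1.5 times.

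Directions turned, with one side called, for Polr1a at day 4 against day 0 without day 4 replicate 3 (0.45, range over single libraries -0.32 to 0.45), for Npm1 at day 8 against day 0 with quantile normalization (0.0904), and for Polr1b (-0.28, range -0.28 to 0.38) and Utp20 (-0.50, range -0.50 to 0.31) at day 8 against day 4 without day 4 replicate 3. Without both nuclear libraries they turned for Polr1c (0.18), Gar1 (0.36) and Noc3l (-0.21) in the nucleus and for Nhp2 in the ratio (0.35). The called members kept in every alternative tried were 5 of 12 at day 8, 10 of 15 at day 10 and 0 of 2 for the libraries labelled day 12, all against day 0. They were 0 of 11 for day 8 against day 4, 0 of 1 for day 10 against day 8, 11 of 17 for the libraries labelled day 12 against day 10, 22 of 24 and 17 of 23 between the fractions at days 0 and 12, 3 of 7 in the cytoplasm and 1 of 16 in the nucleus. FPKM without read counts gives no counting error for any single library.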
